A study of Mus musculus with 2 samples.

Results

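The genes described here are 9 factors that carry the circadian clock's rhythm outward or feed back on it: Dbp, Tef, Hlf, Nfil3, Ciart, Bhlhe40, Bhlhe41, Usp2 and Rora. They were chosen by name, as were the related lists, with earlier results of these data known. Counts set beside the share of all genes are therefore no test. A probe was assigned to a gene through the RefSeq accession that the array files give for it. In this way 12 of the 55681 probes that are not controls were assigned to the 9 genes, 1 probe each for 6 genes and 2 each for Dbp, Bhlhe41 and Rora. The 9 genes are among 21368 genes named on the array, of which 14003, all 9 included, are called measured because a probe of theirs was well above background on each array.

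The study compared a control heart sample of C57BL6 background with a heart sample of the transgenic mouse line 5025Wcl/Mmmh, to look for signalling that accompanies cardiac remodelling. That line carries CAG-WRN*K577M on a B6.Cg background and is called WRN-K577M. Below, the transgenic heart means the WRN-K577M sample. The transgene is a form of WRN, a DNA helicase of the RecQ family, with a substitution in the helicase domain, and its CAG promoter is active in most tissues. Total RNA was hybridised to 1-colour Agilent arrays, 1 array per group. The labels used here do not say what the letters ND in both titles mean, how old or of which sex the animals were, whether a sample was a single heart or a pool, or at which hour the tissue was taken.

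In the mammalian clock, CLOCK and BMAL1 (the product of Arntl) switch on genes through a DNA element called the E-box, and the products of some of these genes then hold CLOCK and BMAL1 back. Dbp, Tef and Hlf encode the PAR bZIP activators, which bind a second element, the D-box, and Nfil3 (also called E4BP4) encodes a repressor that binds the same element. Levels of several of these transcripts, Dbp above all, are known to swing widely over the day in many tissues, the heart among them.

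A probe's level is its processed signal on the log2 scale relative to the 75th percentile of its array, and the log2 ratio of a probe is its WRN-K577M level less its control level. With 1 array per group there is no test between the groups, no p-value and no replicate check. Each ratio is set beside the scanner software's own error estimate and the spread of a probe's ratio over its repeated spots, which cover measurement only. That spread was an SD of 0.065 for 168 repeated probes with a level of 0 or more, and 0.23 for 35 repeated probes with a level under -2. Signals of different probes depend on the probe, so levels are not ranked across genes.

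The 2 samples also differed in the levels of markers of several tissues and cell types. The defining markers of heart muscle were present on both arrays: all 11 were measured, none was 2-fold different, and their median log2 ratio was 0.15. All 6 measured atrial markers were 2-fold or more lower in the transgenic heart, and in multiples of the array's 75th percentile the summed signals of the 8-gene list were 656 (control) and 157 (transgenic). For 8 lung markers the sums were 129 and 0.46, with 6 of them well above background in the control only. The sums of 7 adipocyte markers were 27.4 and 3.40, those of 9 macrophage markers 44.5 and 26.7, and those of 8 fibroblast markers 328 and 232. Of the fibroblast markers 5 were at least 2-fold lower, and 7 were below 0 and 1 above, with a median log2 ratio of -1.40. All 4 measured erythroid genes were 2-fold or more lower, with a median log2 ratio of -2.80 and sums of 820 and 192. The sums of 4 smooth muscle markers were 60.0 and 67.9, yet 3 of these genes had log2 ratios below 0 and 1 above, with a median of -0.79. The sums of 7 endothelial markers were 39.4 and 32.8. Fewer cells of a type and less RNA per cell cannot be told apart in these samples, and the part of this difference in the values below was not tested.

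Of the 9 clock output genes, Dbp and Ciart were at least 2-fold higher in the transgenic heart and Nfil3 was at least 2-fold lower. The other 6 lay between log2 ratios of -0.37 and 0.46. Among all measured genes 1.94% were that much higher and 3.46% that much lower, against 2 and 1 of these 9. The median log2 ratio of the 9 was 0.27, with 6 of them above 0, and that of all measured genes was 0.020, with 52.4% of them above 0.

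**Figure D1:**
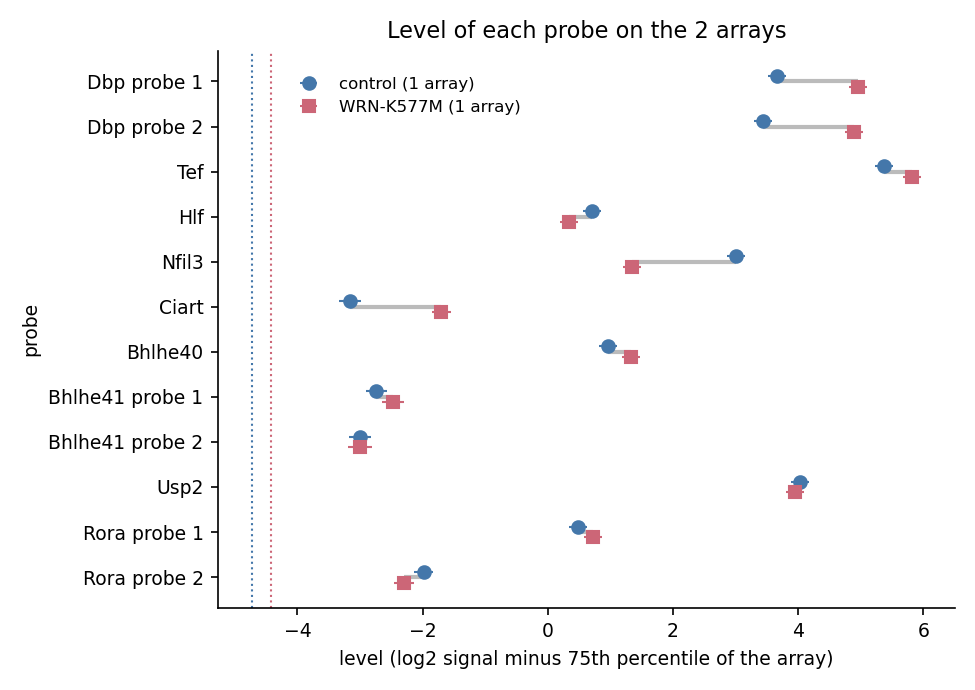
Level of each of the 12 probes on the control array (circles) and the WRN-K577M array (squares), in log2 units relative to the array's 75th percentile; bars are the software's error of each level, and dotted lines mark the lowest level of a probe well above background on each array. The markers of Dbp, Ciart and Nfil3 lie farthest apart, with Dbp and Ciart to the right in WRN-K577M and Nfil3 to the left.

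Dbp, the PAR bZIP factor whose own transcription is driven by CLOCK and BMAL1, was read by 2 probes. The first had a processed signal of 3252 in the control and 6494 in the transgenic heart, which are levels of 3.67 and 4.95. Its log2 ratio was 1.29 with a software error of 0.20, or 2.44-fold. The other Dbp probe went from a level of 3.44 to one of 4.89, a log2 ratio of 1.45 (2.74-fold). The probes differed by 0.17, less than the combined software error of 0.29, and both read a higher Dbp level. Of the 14003 measured genes, 117 had a log2 ratio at least as high as Dbp, Dbp included.

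Tef, thyrotroph embryonic factor, was the second PAR bZIP gene with a higher level, and its difference was smaller. Its level was 5.37 in the control and 5.82 in the transgenic heart, a log2 ratio of 0.46 with an error of 0.20. A ratio that high or higher was found in 10.9% of measured genes. Hlf, hepatic leukemia factor and the third member of the family, lay on the other side of 0. Its levels were 0.71 and 0.34 in the same order, a log2 ratio of -0.37, and 16.1% of genes were at least as low. The 3 PAR bZIP genes were therefore not shifted alike: the log2 ratio of Dbp exceeded that of Hlf by 1.65, with a combined error of 0.29.

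Nfil3 had the largest difference of the 9 in size. Its signal was 2048 in the control and 532 in the transgenic heart, levels of 3.0 and 1.34. The log2 ratio was -1.66 with an error of 0.20, or 3.15-fold lower, and 146 measured genes, 1.04%, were at least as low. Nfil3 was thus lower where Dbp, the activator at the same D-box element, was higher. A constant scaling between arrays cancels when ratios are subtracted, and the log2 ratio of Dbp exceeded that of Nfil3 by 2.94 with a combined error of 0.29, a 7.69-fold change of one relative to the other. For Tef the excess over Nfil3 was 2.11 and for Hlf 1.29. Nfil3 is also expressed in macrophages and lymphocytes. All 9 macrophage markers were lower in the same heart, with log2 ratios from -1.40 to -0.50, and their summed signal was 44.5 in the control and 26.7 in the transgenic heart. The summed signal of 8 lymphocyte markers was 6.73 in the control and 6.48 in the transgenic heart, 3 of them were measured, and 2 were well above background in neither. The part of these cells in the Nfil3 value was not tested.

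Ciart encodes CHRONO, a repressor that binds BMAL1. Its single probe was dim, with a signal of 28.6 in the control and 64.6 in the transgenic heart, which are levels of -3.16 and -1.70. Both lay above the lowest level of a probe well above background, by 1.57 in the control and 2.72 in the transgenic heart. The log2 ratio was 1.46 with an error of 0.24 (2.75-fold), and 79 measured genes were at least as high. This value depended on the background correction: it was 0.74 after normexp, a background correction with a constant offset, and a stricter filter on dim probes left the gene out.

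Bhlhe40 and Bhlhe41 encode DEC1 and DEC2, basic helix-loop-helix repressors that compete for the E-box, and both lay within 1.5-fold between the arrays. Bhlhe40 had levels of 0.96 and 1.33, a log2 ratio of 0.37 with an error of 0.20. Bhlhe41 was dim on both probes. The first had levels of -2.74 and -2.47, a log2 ratio of 0.27, and the second had levels of -3.002 and -3.006, a log2 ratio of -0.0040. The gap of 0.27 between these probes was below their combined error of 0.36, and the first probe's ratio was close to its own error of 0.25.

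Usp2 encodes a ubiquitin-removing protease that acts on clock proteins such as PER1, and Rora a nuclear receptor that activates Arntl. Usp2 had levels of 4.03 and 3.94, a log2 ratio of -0.082 that lay within its error of 0.20. The probes of Rora, designed on different RefSeq transcripts, gave ratios of opposite sign. The brighter went from 0.49 to 0.72, a log2 ratio of 0.24, and the dimmer from -1.98 to -2.29, a ratio of -0.31. Their gap of 0.54 exceeded the combined error of 0.30. A gap of that size or more was seen in 12.9% of the 3650 genes measured by several probes, and 27.9% of these genes had probes on both sides of 0. After normexp the dimmer Rora probe had a ratio of -0.016.

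**Figure D2:**
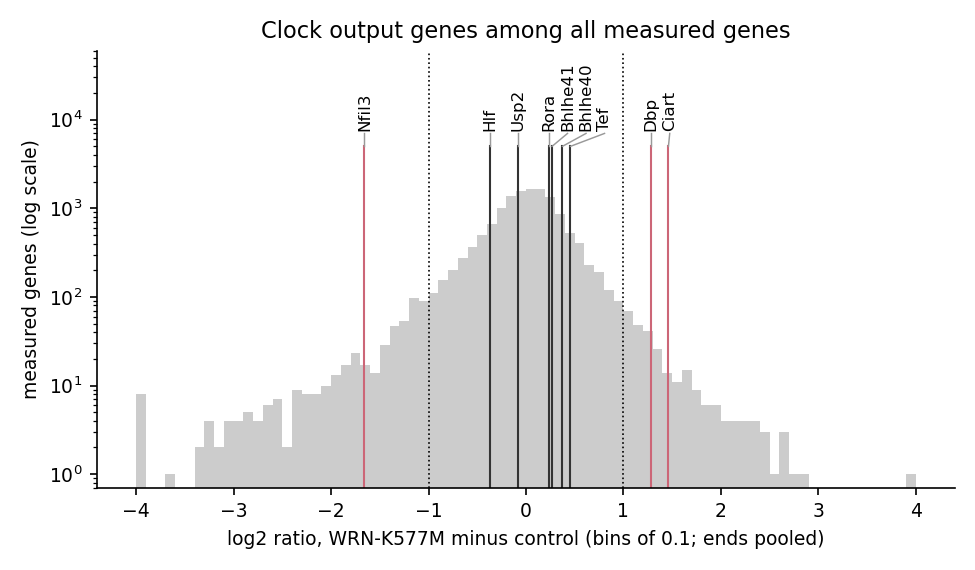
Number of measured genes (log scale) by log2 ratio, WRN-K577M minus control, in bins of 0.1 with values beyond 4 pooled at the ends; vertical lines mark the 9 clock output genes, red where at least 2-fold different, and dotted lines mark 2-fold. Nfil3, Dbp and Ciart lie in the tails, and the other 6 lie within the bulk of the 14003 genes.

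The start sites of these genes were searched for the DNA elements through which the clock acts, because those genes that differed most are known to answer to different elements. RefSeq windows of build GRCm38.p6, from 250 bases before to 50 after a start site, were at hand for 8 of the 9 genes, 9 windows in all with 2 for Tef. They were searched on both strands for the E-box CACGTG, the D-box TTATGTAA or TTACGTAA, the core TAGGTCA bound by ROR and Rev-Erb receptors, and the cAMP response element TGACGTCA. No match overlapped another. The E-box was found in 4 of the 9 windows and in 7.15% of all 32851 windows. The window of Ciart held 3 of them, and 29 windows (0.088%) held that many or more. The stretch below, on the minus strand at chr3:95882257-95882354, is shown for these E-boxes, which are in capitals and begin 116, 58 and 44 bases before the start site.
Ciart: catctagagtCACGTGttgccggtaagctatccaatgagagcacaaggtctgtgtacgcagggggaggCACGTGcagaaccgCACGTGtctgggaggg

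Both windows of Tef, on the plus strand at chr15:81802534-81802563 and chr15:81811264-81811293, and that of Bhlhe41, on the minus strand at chr6:145865556-145865585, held 1 E-box each, shown in capitals. They begin 127 and 138 bases before the start sites of Tef and 153 before that of Bhlhe41. Neither gene was 2-fold different, with log2 ratios of 0.46 for Tef and 0.27 for Bhlhe41. Ciart was beyond 2-fold in the main setting, but its dim probe had a ratio of 0.74 after normexp.
Tef, first start: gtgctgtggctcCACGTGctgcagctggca
Tef, second start: cacctggcccagCACGTGtctacatcgttt
Bhlhe41: tggtacgttccgCACGTGagctgggtgctg

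Of the 8 genes searched, Nfil3 alone had a match to TAGGTCA, which 2.61% of all windows hold. It lies on the opposite strand, so that the capitals read TGACCTA, and begins 12 bases before the start site. The stretch is on the minus strand at chr13:52981033-52981062. Arntl, the core clock gene known in mouse to be controlled through such sites by ROR and Rev-Erb, is shown beside it for its sequence and was chosen after its value was seen. It lies on the plus strand at chr7:113207530-113207559, with the match beginning 31 bases into the transcript. Among the windows of the other core clock genes, those of Cry1 and Per1 (log2 ratio 0.13) held 1 E-box each and that of Per3 (0.59) held 2 D-boxes.
Nfil3: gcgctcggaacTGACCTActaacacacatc
Arntl: aaggcagaaagTAGGTCAgggacggaggtg

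The window of Hlf, on the minus strand at chr11:90390908-90390937, held a cAMP response element (capitals), which 1.79% of windows hold and which begins 9 bases before the start site. None of the 9 windows held the D-box, and the windows of Dbp, Usp2 and Rora held none of the elements searched. The E-boxes known to drive Dbp in mouse lie partly in its introns, outside this window. These matches describe the sequence and do not show that a factor was bound.
Hlf: ggtgcgggcccTGACGTCActcttgtcagg

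The other genes of the clock network were counted in the same way. In the core loop, 8 of 10 measured genes of 12 listed were above 0 with a median log2 ratio of 0.58. None was at least 2-fold higher, and Arntl alone was at least 2-fold lower, with levels of 0.96 and -0.35 and a log2 ratio of -1.30. Of 16 measured kinases, ubiquitin ligases and other modifiers of the clock, none was 2-fold different and 12 were above 0 (median 0.20). In the same comparison 5.39% of all measured genes were at least 2-fold different.

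Genes on which the PAR bZIP factors are known to act, mostly from mouse liver, kidney and brain, lay on both sides of 0. Of 6 measured among 9 listed, 5 were below 0 and 1 above, with a median log2 ratio of -0.41, and 2 were at least 2-fold lower. Among all measured genes 3.46% were that much lower. Cyp2b10, a xenobiotic-metabolising cytochrome, had a ratio of -1.44 and Alas1, the first enzyme of haem synthesis, one of -1.10. Por, the electron donor of cytochromes P450, had a ratio of 0.60. Cyp2b10 is expressed in lung, and the summed signal of the lung markers was 129 in the control and 0.46 in the transgenic heart, so its value stands beside that difference, whose part in it was not tested.

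Genes linked to the clock in heart muscle were on both sides of 0, 7 above and 6 below, with a median of 0.21 over 13. Pdk4, the kinase that limits pyruvate oxidation, was at least 2-fold higher with a log2 ratio of 1.56, and none was as much lower. Among all measured genes 1.94% were that much higher and 3.46% that much lower. Among 12 genes known to cycle in many tissues 9 were above 0, with a median of 0.40. Tspan4, a tetraspanin, had a ratio of 1.16 and Fkbp5, a co-chaperone of steroid receptors, one of 1.12, and the chaperone gene Hsph1 had one of -1.58. With 2 of 12 at least 2-fold higher and 1 lower, the list stood beside the 1.94% and 3.46% of all measured genes.

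**Figure D3:**
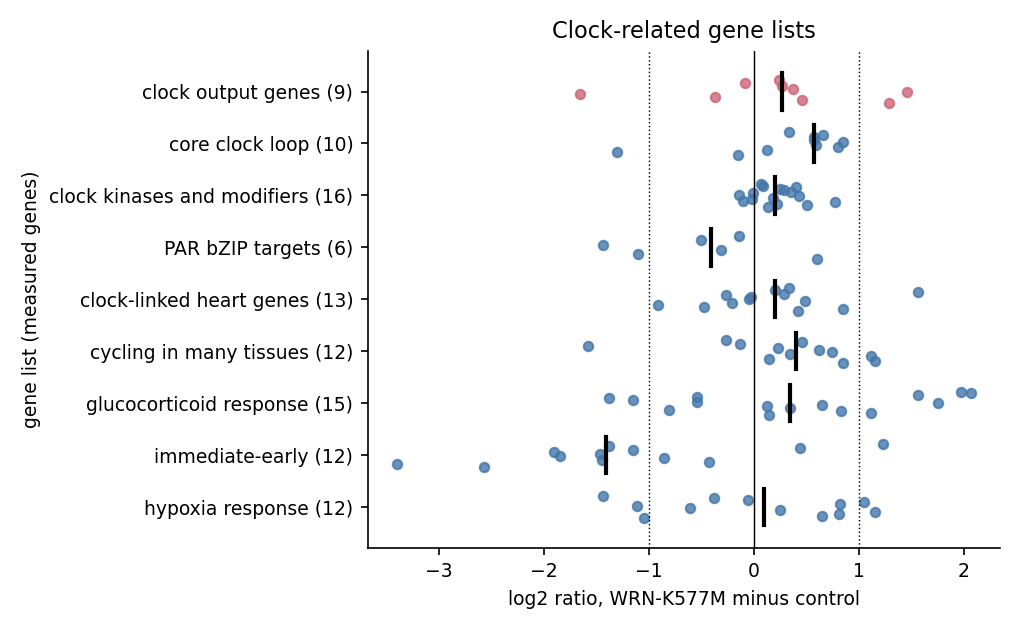
Log2 ratio, WRN-K577M minus control, of each measured gene (points) in the clock output genes and 8 related lists, with the number measured in parentheses, a thick line at each list's median and dotted lines at 2-fold. The core clock loop has its median at 0.58 with Arntl alone beyond 2-fold, and the immediate-early genes have theirs at -1.41.

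The values changed little under most other ways of processing the arrays, though several of these only filter probes or shift all ratios alike. Over 8 settings of background correction, scaling and filter, the log2 ratio of the first Dbp probe lay between 1.21 and 1.29 and that of Nfil3 between -1.71 and -1.56. Tef stayed between 0.36 and 0.46 and Hlf between -0.42 and -0.20. The excess of Dbp over Nfil3 lay between 2.83 and 2.94, though only normexp, quantile normalization and cyclic loess could change it. A constant scaling cancels in it, and a filter leaves a probe's ratio as it is. Of the 9 genes, Ciart was the one whose place beyond 2-fold changed with these settings.

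**Figure D4:**
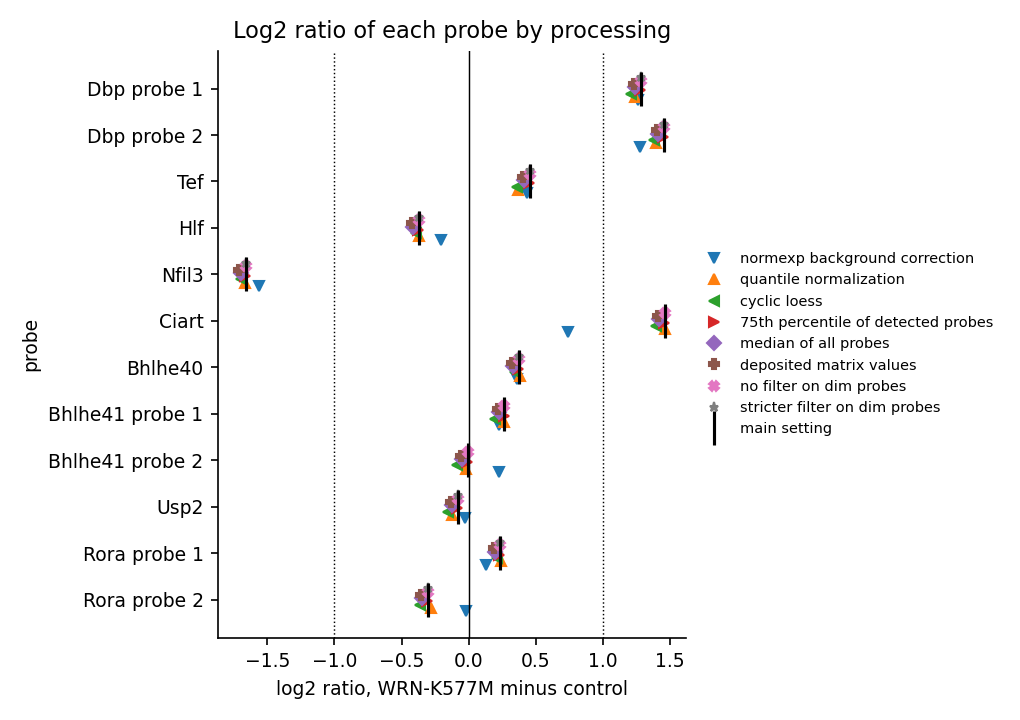
Log2 ratio of each probe, WRN-K577M minus control, in the main setting (black bar) and under up to 8 alternatives (coloured markers), with dotted lines at 2-fold. The markers of a probe lie close together apart from those of normexp background correction, under which Ciart falls to 0.74 and the dimmer probes of Bhlhe41 and Rora move to 0.23 and -0.016.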

How the data were processed

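Agilent Feature Extraction 11.5.1.1 read the spots, per the submitters' processing notes. In the deposited spot files the processed signal is an intensity with background removed within the array and no scaling across arrays, per the file headers. Each column of the deposited matrix is that intensity times 1 factor, 4.12 for the control and 4.86 for WRN-K577M, checked over all spots.

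Both arrays lay on 1 slide. Control spots and 257 outlier spots were left out, and no spot was saturated. On the control and transgenic arrays the 75th percentiles were 256 and 210, and 55.2% and 52.9% of probes were well above background. Accessions without versions were matched to a GRCm38.p6 table (22544 of 23871), naming 28330 probes. The array design is annotated on mm9, per the file headers. A gene took its brightest probe well above background, in most of its spots, on both arrays. Differences were counted at 2-fold.

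Named were all probes of the 9 genes and, of the clock-related and glucocorticoid lists, up to 4 genes beyond 2-fold by size. Of the hypoxia list only the largest, P4ha1 and Bnip3, were named, and none for the immediate-early and marker lists. Named after their values were seen were Por, Per1, Per3, Fkbp5, Dusp1 and Errfi1, the last 3 to complete a list, and Arntl's sequence was chosen likewise. The members and lists were chosen with earlier results of these data known. Alternatives were normexp (offset 50, on the median spot signal), quantile normalization, cyclic loess, percentile of detected probes, median, deposited matrix, no filter, a filter 2 log2 units stricter, the mean of a gene's probes, and thresholds of 1.5-fold and 3-fold. The counting was tested on simulated data. Python 3.11.15, numpy 2.4.6, pandas 2.3.3, matplotlib 3.10.9, R 4.3.3 and limma 3.58.1 were used.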

Additional observations from a re-analysis of the deposited data

How the results depend on the processing

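With 1 array per group, no result has a replicate check, and no paired analysis was possible because each group holds a single array. The number of genes at least 2-fold higher was 2 and became 1 (Dbp) after normexp background correction. It was also 1 (Dbp) with the stricter filter on dim probes, which left 7 of the 9 genes. With that filter 1.60% of all genes kept were at least 2-fold higher. At 3-fold the number was 0, and 0.45% of all measured genes were that much higher. Normexp as used here took the median spot signal, another background estimate and an added constant, which can shrink the ratios of dim probes. The part of each in the Ciart value was not tested. Under normexp 0.821% of all measured genes were at least 2-fold higher. The number at least 2-fold lower was 1 (Nfil3) under every alternative that kept the 2-fold threshold. The share of all genes that much lower ran from 1.41% under normexp to 5.05% with no filter. At thresholds of 1.5-fold and 3-fold the number lower was also 1 (Nfil3), beside 9.16% and 1.1% of all measured genes. Of 93 values of single probes under the alternatives, 91 moved by less than the software's error, 2 moved by more (Ciart and the dimmer probe of Rora, both after normexp), and none beyond 2-fold changed its sign. The filter settings could not move these values, because a filter leaves a probe's ratio as it is. The percentile of detected probes, the median and the deposited matrix each shift all log2 ratios by a constant, -0.051 for the matrix and less in size for the others. The smallest software error was 0.20, so these settings could not move a value by more than its error. Only normexp, quantile normalization and cyclic loess could have done so. The second probe of Bhlhe41, near 0, was at 0.23 after normexp. With the mean of a gene's probes 5 of the 9 genes were above 0, and not 6. Dim signals limit what can be said of Ciart and Bhlhe41.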

Other observations

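Genes that answer to signals known to reach the clock output genes were counted as well. Nfil3 and Bhlhe40 are known to be inducible by hormones and stress in some cells. Of 15 glucocorticoid-responsive genes, all measured, 5 were higher and 2 lower by 2-fold or more in the transgenic heart, with a median log2 ratio of 0.34 and 10 above 0. Among all measured genes 1.94% were that much higher and 3.46% that much lower, which also applies to the lists that follow. Angptl4, a lipoprotein lipase inhibitor, had a ratio of 2.07, Hif3a 1.98, the metallothionein Mt2 1.75 and Pdk4 1.56. Fkbp5, the fifth, had 1.12, and the lower genes were Dusp1 (-1.37), a MAP kinase phosphatase, and Errfi1 (-1.15), an inhibitor of EGF receptor signalling. The lists overlap, so their counts are not separate. Of these genes Pdk4 was also counted among the clock-linked heart genes, Fkbp5 among those cycling in many tissues and Dusp1 among the immediate-early genes.

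Of 12 immediate-early genes 8 were at least 2-fold lower and 1 was higher, with a median of -1.41. Of 12 hypoxia-responsive genes, a response in which Bhlhe40 and Bhlhe41 are known to take part, 2 were at least 2-fold higher and 3 lower, with 6 on each side of 0 and a median of 0.097. P4ha1, a collagen prolyl hydroxylase, had a ratio of -1.44 and Bnip3, a mitophagy receptor, one of 1.15. What sets these differences was not tested.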
